A study of Mus musculus with 18 samples.

Results

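The set described here holds 10 genes for DNA-binding factors of the AP-1 and EGR families: Fos, Fosb, Fosl2, Jun, Junb, Jund, Atf3, Egr1, Egr2 and Egr3. They were taken by symbol from a table of 57010 Ensembl genes, and all 10 were found and passed the filter on low counts that left 17531 genes. RNA had been sequenced from brain endothelial cells of mice at postnatal day 57 in 18 libraries. The study asked how endothelium without Pdcd10, the gene of CCM3 and a cause of cerebral cavernous malformations, differs in low and in normal oxygen.

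Hypoxia KO (5 libraries) came from Slco1c1-iCreERT2;Pdcd10fl/fl;Aldh1l1-EGFP/Rpl10a mice kept in 12% oxygen for 7 days. Hypoxia flox (4 libraries) came from Pdcd10fl/fl;Aldh1l1-EGFP/Rpl10a mice without the Cre driver under the same oxygen. Normoxia KO (5 libraries) and normoxia flox (4 libraries) had the same genotypes at 21% oxygen. Floxed Pdcd10 alleles and the Aldh1l1-EGFP/Rpl10a transgene, whose promoter is active in astrocytes, were thus shared by all 4 groups. The Slco1c1 promoter drives the tamoxifen-regulated recombinase in brain endothelium. In the study, 50 µg 4-hydroxytamoxifen went into the stomach at postnatal day 1. Cre animals that received no injection also served as controls in the study, and the labels do not show which flox libraries, if any, they gave. Nothing states that each library is a separate animal, so p-values below measure only the spread between libraries.

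AP-1 is a dimer of basic leucine zipper proteins: FOS proteins pair with JUN proteins, while JUN proteins and ATF3 can also pair among themselves. EGR proteins are zinc finger factors that bind GC-rich sites. Most of these genes are immediate early genes, switched on within minutes of a growth factor, a mechanical stimulus, stress or cell isolation, by factors such as SRF with its ternary complex partners and CREB that already sit at their promoters.

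The start regions are shown for 4 of the genes that held a motif named below. Any link between these motifs and the variation of the transcripts across libraries was not tested. Of the 10 genes, 8 had an entry in RefSeq's promoter table (mouse build GRCm38.p6; the expression files use GRCm39 and carry no coordinates). Egr1 and Egr3 had none. The windows are the 250 bases before the annotated start, printed 5′ to 3′ on the gene's strand. Capitals mark letters matching the CRE half-site TGACG (bound by CREB and ATF proteins) on either strand, the SRF-binding CArG box, the EGR site GCGNGGGCG, or the TATA box TATAAA.
Fos, chr12:85473640-85473889, plus strand: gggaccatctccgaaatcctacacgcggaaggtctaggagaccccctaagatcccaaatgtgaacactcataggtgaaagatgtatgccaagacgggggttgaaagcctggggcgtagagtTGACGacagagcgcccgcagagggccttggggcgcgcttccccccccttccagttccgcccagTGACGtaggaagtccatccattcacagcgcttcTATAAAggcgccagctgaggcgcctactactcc
Fosb, chr7:19310046-19310295, minus strand: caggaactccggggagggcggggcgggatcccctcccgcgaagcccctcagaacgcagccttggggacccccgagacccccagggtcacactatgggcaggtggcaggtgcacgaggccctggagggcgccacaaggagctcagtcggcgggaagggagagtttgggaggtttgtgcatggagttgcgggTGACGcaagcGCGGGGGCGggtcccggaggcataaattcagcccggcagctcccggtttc
Junb, chr8:84978749-84978998, minus strand: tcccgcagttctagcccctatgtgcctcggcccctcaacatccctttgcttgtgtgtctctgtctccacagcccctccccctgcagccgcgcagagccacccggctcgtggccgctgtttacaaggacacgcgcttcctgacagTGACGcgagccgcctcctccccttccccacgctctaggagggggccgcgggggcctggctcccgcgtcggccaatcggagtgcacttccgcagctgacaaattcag
Egr2, chr10:67537619-67537868, plus strand: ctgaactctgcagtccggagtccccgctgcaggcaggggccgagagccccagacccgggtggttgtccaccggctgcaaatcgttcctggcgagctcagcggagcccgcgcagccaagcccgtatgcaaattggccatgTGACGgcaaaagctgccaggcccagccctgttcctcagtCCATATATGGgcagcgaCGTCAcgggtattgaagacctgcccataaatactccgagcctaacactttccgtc

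The CRE half-site stood in the windows of 5 of the 8 genes (Fos, Fosb, Junb, Atf3 and Egr2), and in 17.8% of all 32851 windows in the table. Fos held it at -129 and -66 from the start, Fosb at -60, Junb at -106 and Atf3 at -7. The Egr2 window shown, 1 of 5 for that gene, was picked because no other held more matches. That window held the half-site at -111 and -55 around a CArG box at -72, and 1.47% of all windows held a CArG box. The EGR site was found in Fosb (-50) and Fosl2 (-79), against 4.7% of all windows, and the TATA box in Fos (-33), against 12.4%. The AP-1 site TGANTCA was found in 0 of the 8 genes and in 6.75% of all windows. Jun and Jund had windows that held none of these motifs as spelled here, and variants of the patterns were not searched. A gene counted if any of its windows matched, while the shares over the whole table count single windows. Both strands were searched, and the matches shown do not overlap. Sites farther than 250 bases before the start, and any in Egr1 and Egr3, were not searched, so a missing match is no absence from the promoter. These are matches of letters and say nothing of binding in these cells.

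Each library held between 17.9 and 31.2 M counted reads (M, 1e6). Pdcd10, the targeted gene, averaged 21.3 ± 2.75 CPM in hypoxia KO (SD, n = 5), 48 ± 9.77 CPM in hypoxia flox (n = 4), 18.6 ± 1.92 CPM in normoxia KO (n = 5) and 39.3 ± 6.13 CPM in normoxia flox (n = 4). CPM is counts per 1e6 counts after TMM scaling. The endothelial markers Cldn5 and Pecam1 were at 1313 CPM or more and at 1032 CPM or more in every library. Neuronal transcripts marked normoxia KO 4 and normoxia flox 4, with 471 and 838 CPM of Syt1, a synaptic vesicle gene, against at most 8.68 CPM in the other libraries. Xist, made in females, and the Y-linked Ddx3y were both present in normoxia KO 4, normoxia flox 3 and normoxia flox 4, while all 4 hypoxia flox libraries held Ddx3y with Xist at most 1.72 CPM, and 4 of 5 hypoxia KO libraries held Xist at 669 CPM or more. Apart from hypoxia KO 4, sex and genotype thus cannot be told apart in hypoxia.

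The 10 factor genes were abundant and uneven. Together they held 0.276%, 2.15%, 2.41%, 2.05% and 2.04% of the counts in hypoxia KO 1 to 5, and 1.79%, 0.71%, 0.185% and 0.179% in hypoxia flox 2 to 5. The share was 2.57%, 2.42%, 0.292%, 2.45% and 0.389% in normoxia KO 1, 2, 4, 5 and 6, and 2.19%, 0.757%, 0.181% and 0.409% in normoxia flox 1 to 4. Every group held at least 1 library near 2% and at least 1 under 0.5%, so the groups overlapped. In bulk RNA, fewer cells that make a transcript and less of it per cell cannot be told apart.

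**Figure D1:**
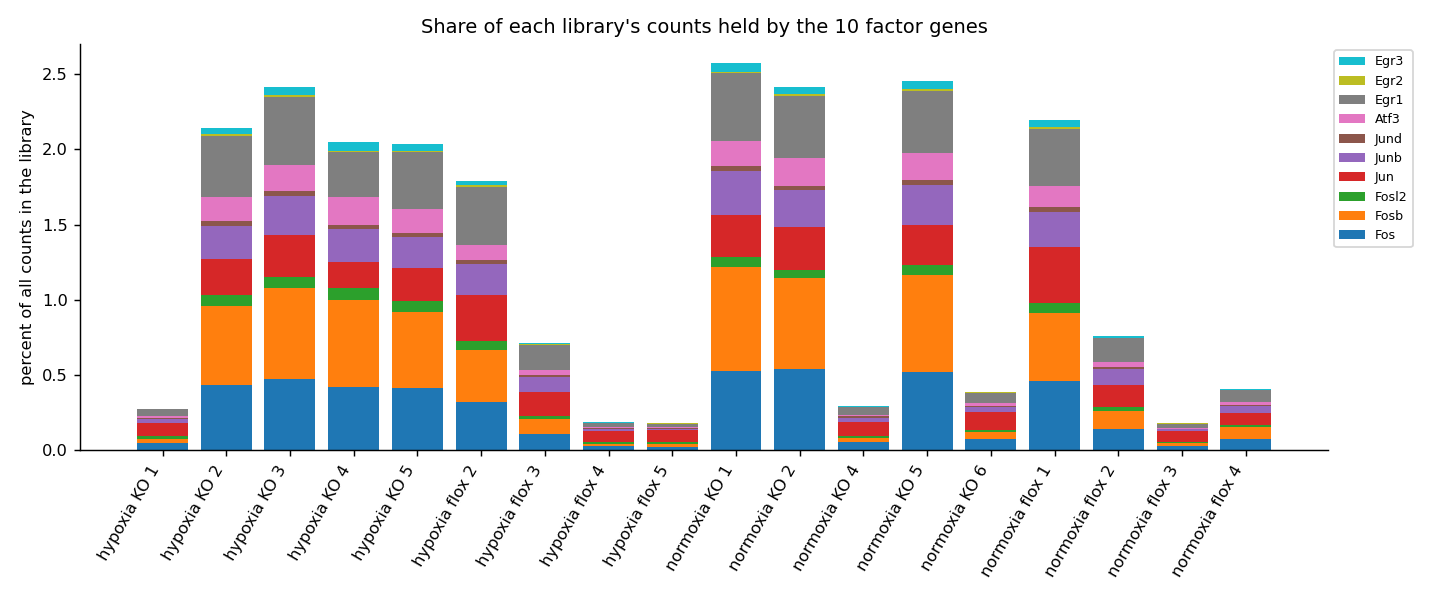
Share of all counts in each library (percent, vertical axis) held by the 10 factor genes, stacked by gene, with libraries along the horizontal axis. Shares ran from 0.179% in hypoxia flox 5 to 2.57% in normoxia KO 1, and each group spans high and low libraries.

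Fos (ENSMUSG00000021250), the founding FOS gene and a short-lived partner of JUN proteins, had 475, 4676, 5015, 4643 and 4308 CPM in hypoxia KO 1 to 5, and 3088, 1010, 249.5 and 221 CPM in hypoxia flox 2 to 5. In normoxia it had 5552, 5734, 570.4, 5442 and 762 CPM in KO 1, 2, 4, 5 and 6, and 4749, 1326, 292 and 752 CPM in flox 1 to 4. Hypoxia KO 1 and normoxia KO 4 and 6 were low beside the other KO libraries, and hypoxia flox 2 and normoxia flox 1 were high beside the other flox libraries, so that KO and flox overlapped at both oxygen levels. No library lay between 1326 and 3088 CPM. The order of group means was hypoxia KO (3824 ± 1888 CPM, SD), normoxia KO (3612 ± 2692), normoxia flox (1779.7 ± 2024) and hypoxia flox (1142 ± 1348), and no neighbours in that order were further apart than their SDs.

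Fosb (ENSMUSG00000003545), whose short protein form accumulates after repeated stimulation, stood at 250.3, 5629.7, 6434, 6355 and 5203 CPM in hypoxia KO 1 to 5, and at 3364, 901, 145 and 124 CPM in hypoxia flox 2 to 5. In normoxia the values were 7256, 6365, 263, 6798 and 412 CPM in KO 1, 2, 4, 5 and 6, and 4597, 1163, 139 and 771 CPM in flox 1 to 4. The low and the high libraries were those of Fos. Its highest value was 58.3 times its lowest, the widest range of the 10 genes, against 25.9 times for Fos.

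Fosl2 (ENSMUSG00000029135), which encodes the FOS-related protein FRA-2, ranged less, 10.5-fold over all libraries. It had a median of 762 CPM in hypoxia KO (186 to 867), 175 in hypoxia flox (105 to 606), 619 in normoxia KO (92.1 to 684) and 178 in normoxia flox (82.3 to 700.4). The ranges overlapped in every comparison.

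Jun (ENSMUSG00000052684), the JUN subunit that drives its own promoter in part, was the flattest of the 10 genes, with a 5.78-fold range. It had 847, 2560, 2962, 1936 and 2319 CPM in hypoxia KO 1 to 5, and 2968, 1458, 714 and 738 CPM in hypoxia flox 2 to 5. In normoxia it had 2939, 2993, 962, 2818 and 1162 CPM in KO 1, 2, 4, 5 and 6, and 3843, 1434, 665 and 794 CPM in flox 1 to 4. The highest library of all was a flox one, normoxia flox 1, and the highest hypoxia library was also flox. Jun was the 1 member whose group mean was higher in normoxia KO (2175 CPM) than in hypoxia KO (2125 CPM); the other 9 had the group order of Fos.

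Junb (ENSMUSG00000052837), often a weaker activator than Jun and at some promoters its antagonist, ranged 33.5-fold. Its median was 2361 CPM in hypoxia KO (239 to 2765), 530.3 in hypoxia flox (93.1 to 1995), 2570.3 in normoxia KO (314 to 3118) and 704 in normoxia flox (129 to 2405). Jund (ENSMUSG00000071076), the JUN gene usually expressed at a steady level in resting cells, also varied here, by 8.79-fold. Its median was 282 CPM in hypoxia KO (76.7 to 321), 78.2 in hypoxia flox (37.8 to 286), 293 in normoxia KO (72.3 to 332) and 86.1 in normoxia flox (40 to 308). Both genes overlapped between the groups of every comparison.

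Atf3 (ENSMUSG00000026628), a stress-induced factor that represses transcription as a homodimer, ranged 48.5-fold. It had 105, 1720.4, 1848, 2088 and 1665 CPM in hypoxia KO 1 to 5, and 971, 303, 58.9 and 43.1 CPM in hypoxia flox 2 to 5. In normoxia it had 1781, 1969, 126, 1875 and 163 CPM in KO 1, 2, 4, 5 and 6, and 1490.2, 310, 52 and 235 CPM in flox 1 to 4. In both oxygen conditions the high KO libraries lay above all flox libraries, and the remaining KO libraries lay within the flox range.

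Egr1 (ENSMUSG00000038418), an activator induced by growth factors and shear stress in endothelium, had 445, 4384, 4808, 3289 and 3923 CPM in hypoxia KO 1 to 5, and 3734, 1540.5, 270.1 and 225 CPM in hypoxia flox 2 to 5. In normoxia it had 4703, 4422, 508, 4362 and 689.5 CPM in KO 1, 2, 4, 5 and 6, and 3873, 1488, 278 and 752 CPM in flox 1 to 4. Hypoxia flox 2 lay above hypoxia KO 4, so that overlap reached into the high libraries.

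Egr2 (ENSMUSG00000037868), best known as a regulator of myelination and hindbrain patterning, had the lowest median of the 10 over all libraries, 69.3 CPM (14 to 147). Its median was 101 CPM in hypoxia KO, 37.1 in hypoxia flox, 106 in normoxia KO and 41.6 in normoxia flox. Egr3 (ENSMUSG00000033730), a factor downstream of VEGF in endothelium and of antigen receptors in lymphocytes, ranged 56.1-fold. Its median was 483 CPM in hypoxia KO (19 to 629.7), 30 in hypoxia flox (11.2 to 291), 519 in normoxia KO (23.3 to 576) and 79.2 in normoxia flox (15.4 to 430.4). The lowest KO libraries of both genes lay inside the flox range.

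**Figure D2:**
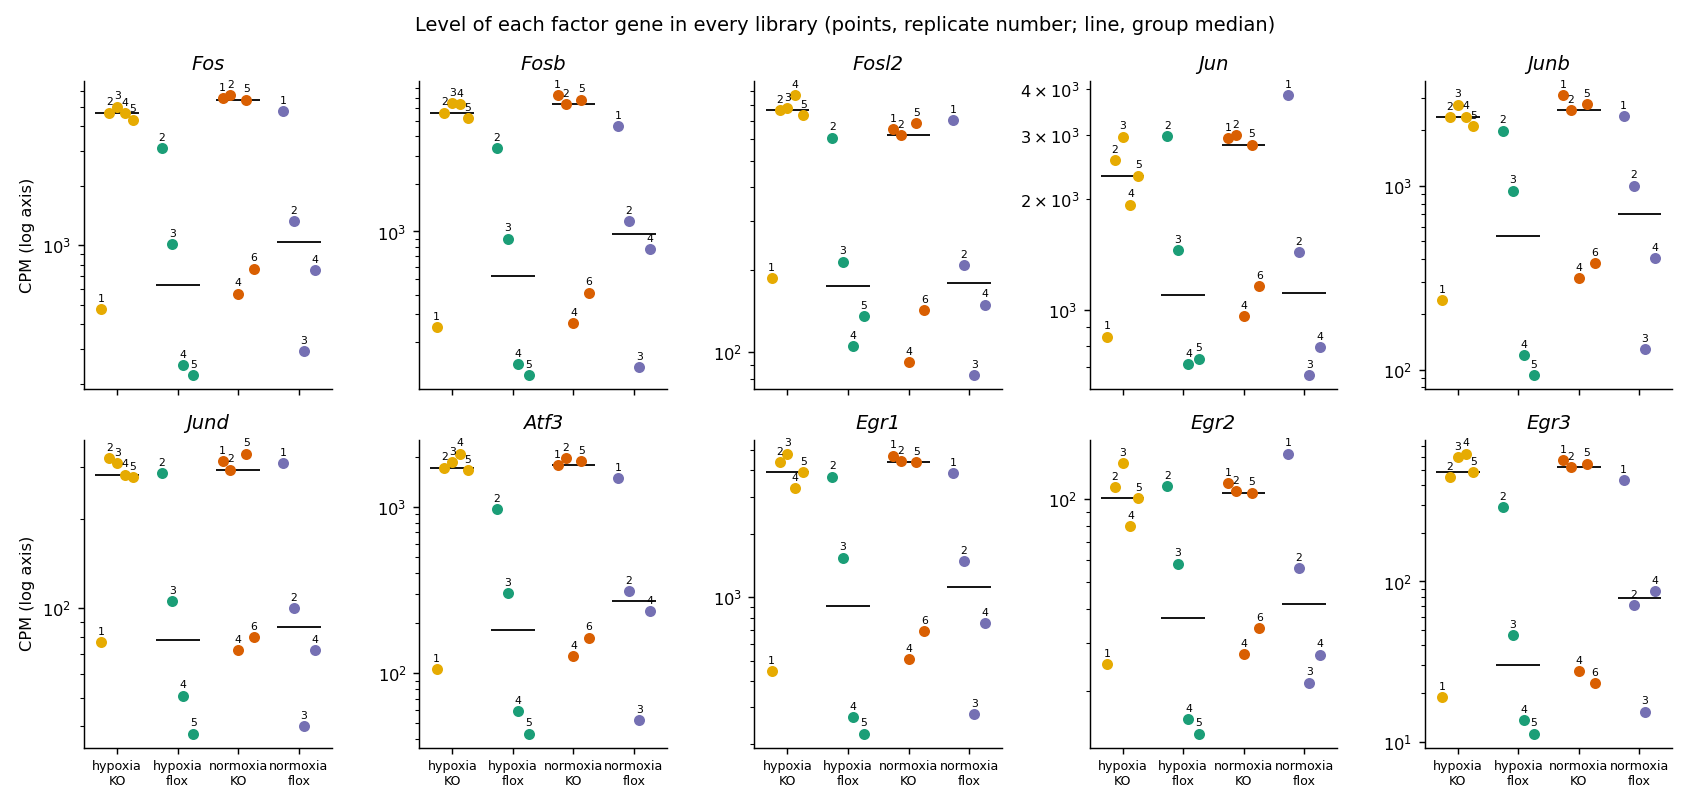
Level of each factor gene (CPM, log axis) in every library, by group, with the replicate number at each point and a line at the group median. Every panel has the same low KO libraries (hypoxia KO 1, normoxia KO 4 and 6) and the same high flox libraries (hypoxia flox 2, normoxia flox 1); Fos is at 475 CPM in hypoxia KO 1 and at 3088 CPM in hypoxia flox 2.

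Per length of transcript, on the authors' RPKM scale, Fos was the most abundant factor by its median over all libraries (974 RPKM). Junb (673), Jun (523), Egr1 (519), Fosb (376) and Atf3 (308) followed, ahead of Jund (111), Egr3 (44), Fosl2 (42.1) and Egr2 (20). The top place changed hands between libraries: Fos had the highest RPKM in 11 libraries and Jun in the other 7. The RPKM ratio of Jun to Fos was 1.31 in hypoxia KO 1 and 0.308 to 0.436 in hypoxia KO 2 to 5, and it was 0.709, 1.06, 2.11 and 2.46 in hypoxia flox 2 to 5. In normoxia it was 0.39, 0.385, 1.24, 0.382 and 1.12 in KO 1, 2, 4, 5 and 6, and 0.597, 0.798, 1.68 and 0.778 in flox 1 to 4. In each library where Jun exceeded Fos, Fos was at 1010 CPM or less; normoxia flox 4, with Fos at 752 CPM, was the exception at that level. Fosb RPKM stayed under that of Fos in every library, at 0.174 to 0.516 of it.

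The EGR genes Egr2 and Egr3 also changed places between libraries. The RPKM ratio of Egr3 to Egr2 was 0.592 in hypoxia KO 1 and 3.14 to 6.06 in hypoxia KO 2 to 5, and it was 2, 0.613, 0.66 and 0.622 in hypoxia flox 2 to 5. Normoxia KO 1, 2 and 5 had ratios of 3.87, 3.75 and 3.97, normoxia KO 4 and 6 had 0.785 and 0.525, and normoxia flox 1 to 4 had 2.25, 0.977, 0.552 and 2.47. In flox the ratio did not follow Fos throughout. Its highest flox value was in normoxia flox 4, which had Fos at 752 CPM and carried neuronal transcripts, while normoxia flox 2 had Fos at 1326 CPM.

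The members varied together within the groups. Each library's deviation from its group mean, in log2 CPM, was set against that of Fos. In the KO groups the Fos deviations fell into a high and a low set, with a gap of 3.18 in a range of 3.4 log2 units in hypoxia KO and of 2.84 in 3.33 in normoxia KO, so no correlation was tested there. All 9 other members were low in the same KO libraries. The 8 flox libraries were spread over 4.15 log2 units with no gap above 1.48, and the relation was tested over them, a choice made after the data were seen.

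Over the flox libraries (n = 8), Pearson's r with Fos was between 0.972 (Fosl2) and 0.995 (Atf3), and Spearman's rho between 0.929 (Egr2) and 1. Exact permutation of the libraries within both groups gave Benjamini-Hochberg adjusted two-sided p-values over the 9 genes of at most 0.00521 for r and 0.0104 for rho. The smallest p that the 576 orders can give is 0.00174. Without the libraries farthest from the median of Fos, hypoxia flox 2 and normoxia flox 1, r was between 0.925 (Egr3) and 0.997.

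Their steepness differed. A deviation of 1 log2 unit in Fos went with 1.33 units in Fosb, 1.3 in Egr3, 1.2 in Atf3, 1.06 in Junb and 0.99 in Egr1. The slope was 0.71 in Fosl2, 0.69 in Egr2, 0.67 in Jund and 0.53 in Jun. These slopes, over all 18 libraries, are descriptions without a test between genes.

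**Figure D3:**
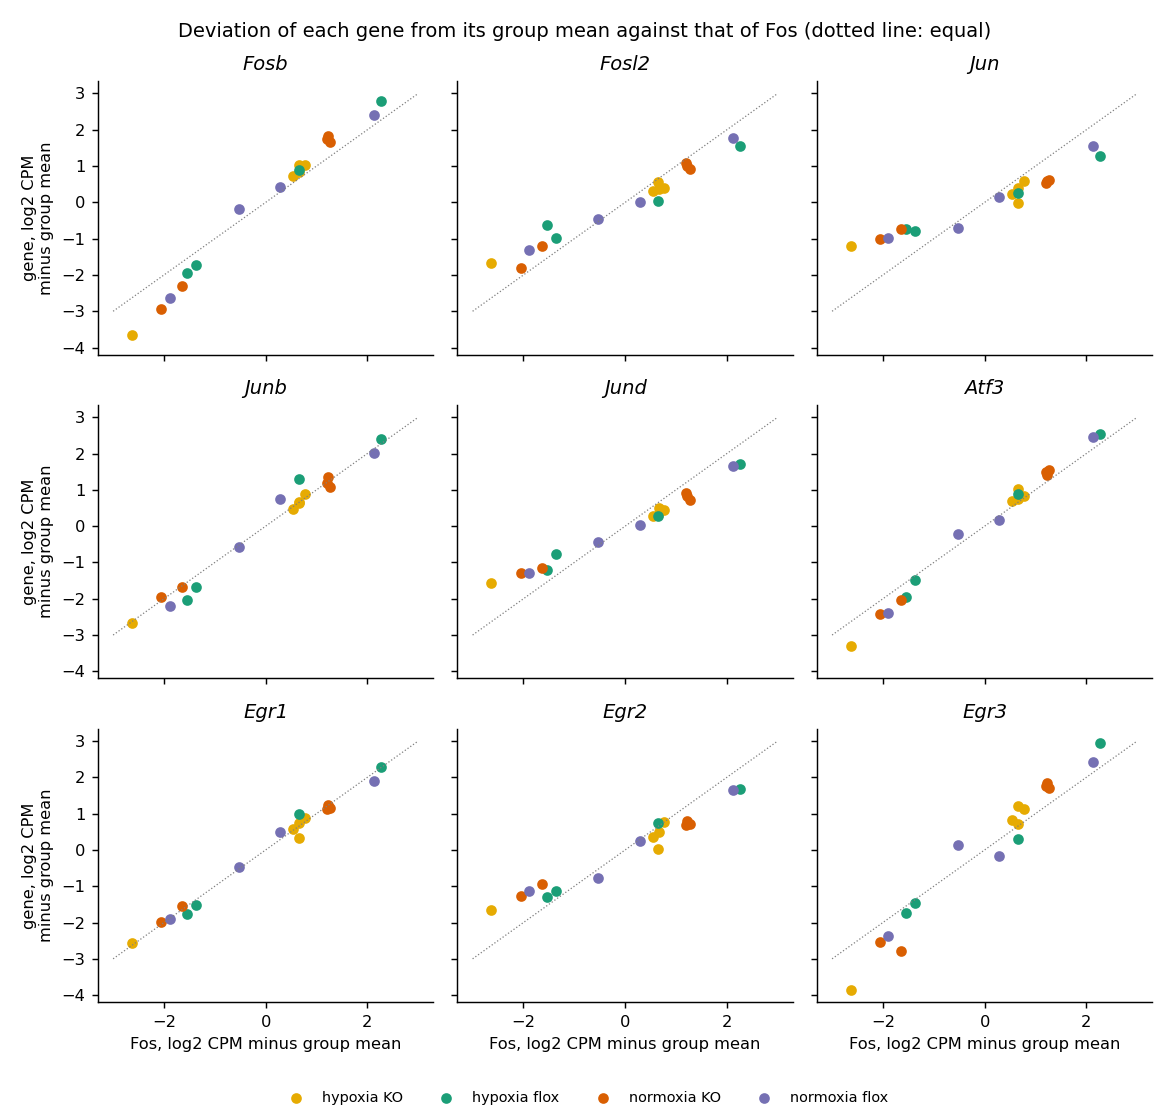
Deviation of each of 9 factor genes from its group mean (vertical axis, log2 CPM) against that of Fos (horizontal axis, log2 CPM), with 1 point per library coloured by group and a dotted line where both are equal. Points follow the line closely for Egr1 (slope 0.99), more steeply for Fosb (1.33) and more flatly for Jun (0.53).

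Of 9960 other genes with an average of at least 3 log2 CPM, the 6 whose deviations were most like the mean of the 10 members were Epha2, a receptor of ephrin ligands (r = 0.9956 over 18 libraries), Zfp36, an mRNA-destabilising protein (0.9951), the orphan nuclear receptor Nr4a1 (0.995), the matricellular protein Ccn1 (0.993), Sowahc (0.9922) and the cytokine signalling inhibitor Socs3 (0.9914). The median r of the 9960 genes was -0.104, with 321 genes above 0.9 and 115 below -0.9. Of 36 other immediate early genes, 30 had r above 0.9; Npas4, a neuronal activity factor, had the lowest value at 0.0531. Among 10 heat shock genes, 4 were above 0.9 and the range was -0.0188 to 0.991. These correlations share libraries and depth, also hold the step between high and low KO libraries, and are given as descriptions without p.

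The mitochondrial share of counts was 4.2% in hypoxia KO 1 and 1.99% to 2.26% in hypoxia KO 2 to 5, and 2.12%, 2.38%, 2.67% and 3.39% in hypoxia flox 2 to 5. In normoxia it was 2.55%, 2.65%, 5.38%, 2.55% and 4.07% in KO 1, 2, 4, 5 and 6, and 2.36%, 2.47%, 2.78% and 5.6% in flox 1 to 4. The KO libraries low in the factors, hypoxia KO 1 and normoxia KO 4 and 6, had the highest mitochondrial shares of their groups. Over deviations from group means in the 8 flox libraries (log2 scale, a relation chosen after the values were seen), r with Fos was -0.514 (exact permutation p = 0.22) and rho -0.548 (exact permutation p = 0.167), both two-sided, and r was -0.214 without hypoxia flox 2 and normoxia flox 1. The part of RNA quality or cell handling in the level of the factors was not tested.

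In hypoxia, all 10 members had positive log2 fold changes in KO over flox, with a median of 1.33 against 0 for all genes, and none passed the edgeR quasi-likelihood test (Benjamini-Hochberg adjusted p 0.224 to 0.561). The largest estimates were those of Egr3 (2.26 ± 1.29 SE, 95% interval -0.47 to 5), Atf3 (2.11 ± 1.18, -0.39 to 4.61) and Fosb (2.07 ± 1.27, -0.62 to 4.77). Fos was at 1.74 ± 1.01 (-0.4 to 3.89), Fosl2 at 1.33 ± 0.75 (-0.27 to 2.92), Junb at 1.32 ± 1.03 (-0.87 to 3.52) and Egr1 at 1.22 ± 0.97 (-0.84 to 3.29). Lower estimates were those of Jund (1.08 ± 0.71, -0.44 to 2.59), Egr2 (0.85 ± 0.72, -0.68 to 2.39) and Jun (0.53 ± 0.58, -0.69 to 1.76). Every interval included 0 and also changes of more than 1 log2 unit upward.

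Over all genes, this comparison called 22.3% (11.4% higher, 11% lower in KO), and in 22.3% of genes the KO and flox libraries did not overlap; both counts were 0 for the 10 members. No member was under an unadjusted p of 0.05 with edgeR; DESeq2 also called 0 members, and 25.1% of all genes, after adjustment and had 4 members under an unadjusted 0.05. The standard errors of the members, 0.58 to 1.29, compare with a median of 0.2 over all genes, and the smallest of them was at percentile 85.5. Leaving out hypoxia flox 2 raised the members' median to 2.33, with a lowest adjusted p of 0.0532, and leaving out hypoxia flox 4 lowered it to 1.02.

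In normoxia, the members again had 10 of 10 positive values in KO over flox and 0 calls, with a median of 0.89 against -0.02 for all genes. Fosb had the largest estimate at 1.34 ± 1.23 (95% interval -1.28 to 3.95, adjusted p = 0.53), followed by Atf3 (1.18 ± 1.14), Egr3 (1.16 ± 1.23) and Fos (1.02 ± 0.98, -1.07 to 3.11). Junb was at 0.89 ± 1.02, Egr1 at 0.88 ± 0.96, Jund at 0.75 ± 0.71 and Fosl2 at 0.62 ± 0.74. Jun (0.37 ± 0.57) and Egr2 (0.3 ± 0.71) had the smallest values. The adjusted p-values ran from 0.53 to 0.818, and no member was under an unadjusted 0.05 with either edgeR or DESeq2, which called 19.8% of all genes.

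The test called 16.6% of all genes in this comparison (9.54% higher, 7.03% lower in KO), and 14.7% of genes had no overlap, against 0 of the 10 members by either count. Leaving out normoxia flox 1 took the members' median to 1.8, and leaving out normoxia flox 3 took it to 0.5. Without normoxia KO 4 and normoxia flox 4, which carried neuronal transcripts, it was 0.87; without the libraries with both Xist and Ddx3y it was 0.35. In the libraries whose numbers KO and flox share, with a block for the number, it was 0.44. The labels do not say that equal numbers belong together, and a rule given below treats these as pairs. That fit called 701 of all genes tested, against 2905 without a block. The members' calls were 0 in each of these fits.

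Low oxygen was then set against normal oxygen within each genotype. The KO libraries of both genotype comparisons also enter here, as do the flox libraries, so these contrasts are not independent of those above. In KO, hypoxia over normoxia gave log2 fold changes from -0.03 ± 0.54 (Jun) to 0.6 ± 0.69 (Fosl2), with a median of 0.21 against -0.03 for all genes. Fos was at 0.08 ± 0.9 (-1.84 to 2.01). The test called 0 of 10 members and 1.48% of all genes, and 3.83% of all genes but no member had groups without overlap. Leaving out normoxia KO 4 brought the members' median to -0.03, and leaving out hypoxia KO 1 to 0.47, so its direction rested on single libraries.

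In flox, all 10 members had negative values in hypoxia over normoxia, from -0.74 ± 1.27 (Egr3) to -0.1 ± 0.77 (Fosl2), with a median of -0.33. Fos was at -0.64 ± 1.02 (-2.8 to 1.52). None passed, while 2.81% of all genes did, and 8.5% of all genes but no member had no overlap. The median depended on single libraries: it was 0.68 without normoxia flox 1, 0 without hypoxia flox 4 or without hypoxia flox 5, and -1.31 without hypoxia flox 2. In both oxygen comparisons 0 members were under an unadjusted p of 0.05 with edgeR and with DESeq2, which called 4.18% of all genes within KO and 4.86% within flox.

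The interaction asks whether the KO effect differed between oxygen levels. Its values were positive for all 10 members, from 0.16 ± 0.81 (Jun) to 1.1 ± 1.7 (Egr3), with a median of 0.63. The adjusted p-values were 0.993 to 0.995, and 0 members were under an unadjusted 0.05 with edgeR or DESeq2. The edgeR test called 0.439% of all genes and DESeq2 0.932%. The median was -0.48 without normoxia flox 1 and 1.51 without hypoxia flox 2. For Fos the interval of the difference was -2.17 to 3.61, which leaves room for a sizeable difference either way.

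**Figure D4:**
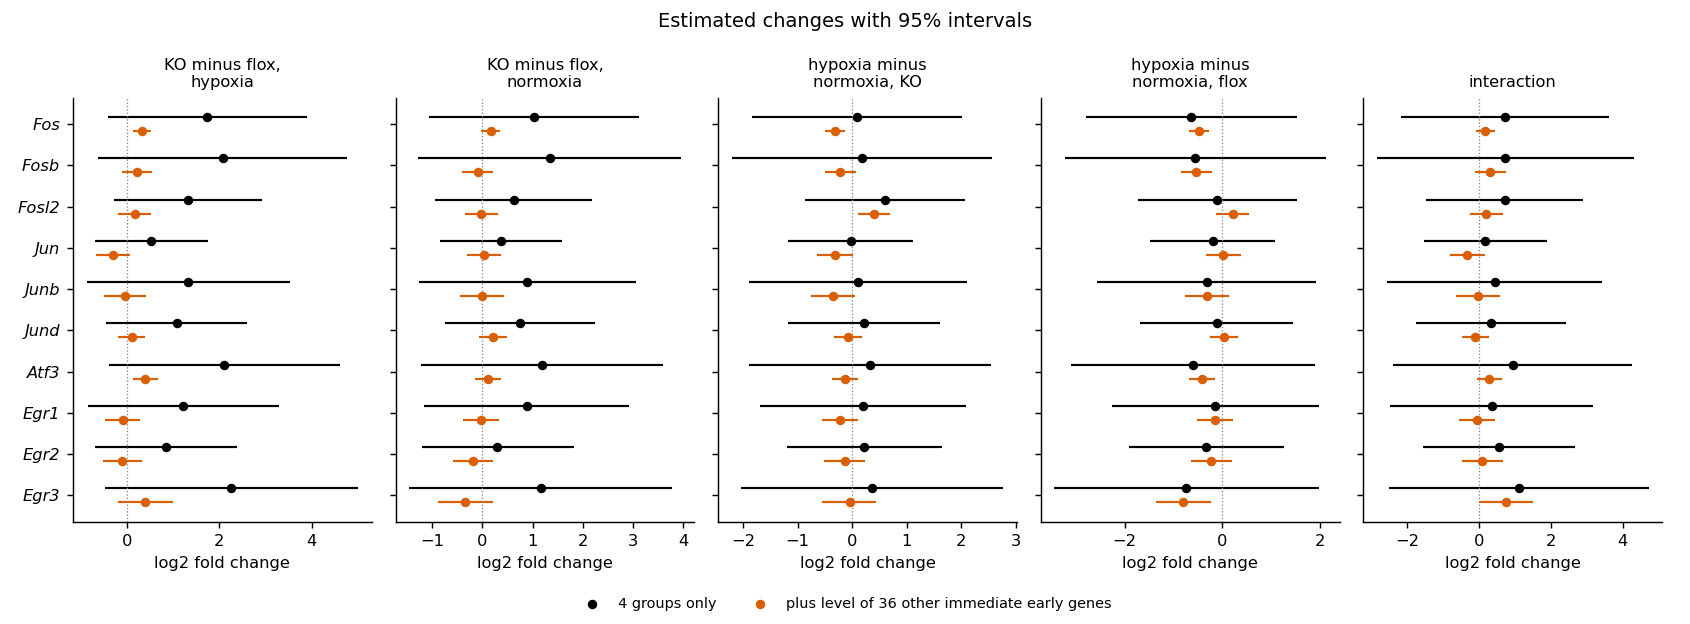
Log2 fold changes (horizontal axes, 95% intervals as lines) of the 10 factor genes in the 5 comparisons, from the fit with the 4 groups (black) and from the fit that also holds the level of 36 other immediate early genes (orange). Black intervals all include 0; for Fos in hypoxia KO over flox the estimate is 1.74 without and 0.33 with the added term.

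A second fit, chosen after the data were seen, added the mean log2 CPM of the 36 other immediate early genes as a covariate. That mean itself was 7.69 ± 1.04 in hypoxia KO (SD, n = 5), 6.41 ± 1.14 in hypoxia flox (n = 4), 7.25 ± 1.19 in normoxia KO (n = 5) and 6.59 ± 1.15 in normoxia flox (n = 4). The fit therefore asks how the factors differed at an equal level of their co-varying genes, a different question from the one above. Standard errors of the members fell to between 0.09 and 0.28 in the genotype comparisons.

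In hypoxia, Fos was then higher in KO than in flox by 0.33 ± 0.09 (edgeR adjusted p = 0.0213) and Atf3 by 0.4 ± 0.13 (adjusted p = 0.0346), 2 of 10 members against 21.5% of all genes. Jun, on the other side, was at -0.3 ± 0.17 and did not pass. In normoxia 0 members and 21.7% of all genes were called, with values from -0.34 (Egr3) to 0.21 (Jund). In flox, Fos was lower in hypoxia than in normoxia by a log2 fold change of -0.48 ± 0.09 (adjusted p = 0.00549), 1 of 10 members against 4.66% of all genes. Fosb was at -0.53 ± 0.15 (adjusted p = 0.0553), Atf3 at -0.42 ± 0.12 (adjusted p = 0.0654), Egr3 at -0.8 ± 0.27 (adjusted p = 0.108) and Fosl2 at 0.21 ± 0.16.

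Within KO the same fit called 0 members and 2.54% of all genes, with Fos at -0.32 ± 0.08 (adjusted p = 0.0566) and Fosl2 at 0.4 ± 0.14 (adjusted p = 0.182). The interaction gave 0 members and 0.559% of all genes. Under an unadjusted p of 0.05 this fit had Fos and Fosl2 within KO, Fos, Fosb, Atf3 and Egr3 within flox, and 0 members in the normoxia KO comparison and in the interaction.

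Other genes of the pathway were read from lists, beside 22.3% of all genes called in hypoxia and 16.6% in normoxia. Of 7 tested relatives among the other AP-1 and EGR genes, Fosl1, which encodes FRA-1, rose in hypoxia KO over flox by 2.85 ± 0.93 (adjusted p = 0.0387), at 0.808, 6.41, 8.65, 12 and 7.35 CPM in KO 1 to 5 and 2.14, 0.867, 0.198 and 0.588 CPM in flox 2 to 5. KO 1 was again the low KO library and fell within the flox range. In normoxia Fosl1 was at 2.4 ± 0.97 (adjusted p = 0.107), and no relative passed there by edgeR; 1 was under an unadjusted p of 0.05, and DESeq2 called 1. Egr4, mostly known from neurons, had 0.87 ± 1.23 in hypoxia and -0.67 ± 1.06 in normoxia. The list medians were 0.35 in hypoxia and -0.04 in normoxia.

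Of 9 partners and corepressors, Mafg, a small MAF protein, rose in KO by 0.36 ± 0.09 in hypoxia (adjusted p = 0.0122) and by 0.52 ± 0.09 in normoxia (adjusted p = 0.000976). Cebpd, a C/EBP factor induced by cytokines, rose in hypoxia by 1.2 ± 0.39 (adjusted p = 0.0369) and was at 0.95 ± 0.39 in normoxia (adjusted p = 0.112); the interaction was 0.25 ± 0.54. Nab2, the EGR corepressor that EGR proteins induce, was at 0.37 ± 0.14 in hypoxia (adjusted p = 0.0672) and 0.04 ± 0.14 in normoxia (adjusted p = 0.879). Its level was 19.4 ± 1.38 CPM in hypoxia KO, 15 ± 1.91 in hypoxia flox, 16.5 ± 2.72 in normoxia KO and 16.1 ± 3.31 in normoxia flox (SD), a narrow range beside those of the EGR genes.

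Upstream, 4 of 22 kinases and SRF, ternary complex and CREB factors passed in hypoxia, 2 in each direction, and 2 passed in normoxia, both lower, shares below those of all genes. Rps6ka1, which encodes the ERK-activated kinase RSK1, fell in KO by 0.71 in hypoxia (SE 0.12, adjusted p = 0.000483) and by 0.63 in normoxia (SE 0.12, adjusted p = 0.00109). Its level was 31.5 ± 2.93 CPM in hypoxia KO, 51.4 ± 6.91 in hypoxia flox, 37.2 ± 1.43 in normoxia KO and 57.8 ± 10.5 in normoxia flox (SD). Mrtfb, an actin-regulated SRF coactivator, fell by 0.71 in hypoxia (SE 0.13, adjusted p = 0.00104) and by 0.59 in normoxia (SE 0.13, adjusted p = 0.00442). Map2k1, which encodes MEK1 above ERK, rose in hypoxia by 0.62 ± 0.16 (adjusted p = 0.01), and Map2k4, a kinase above JNK, by 0.21 ± 0.06 (adjusted p = 0.0243). The list medians were 0.06 and -0.01, near those of all genes.

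Of the 36 other immediate early genes, Klf2, a flow-responsive factor of endothelium, rose in hypoxia KO by 1.41 ± 0.35 (adjusted p = 0.00947), and 0 passed in normoxia by edgeR. DESeq2 called 7 of the 36 in hypoxia, against 25.1% of all genes, and 0 in normoxia, against 19.8%, and 9 and 3 were under an unadjusted p of 0.05 with edgeR. The list medians, 1.3 in hypoxia and 0.85 in normoxia, were close to those of the members. Klf4, its relative, was at 1.5 ± 0.63 in hypoxia (adjusted p = 0.0995) and 0.86 ± 0.61 in normoxia (adjusted p = 0.397). Of 10 heat shock genes, 0 passed in either condition with edgeR or DESeq2, and 1 in hypoxia and 0 in normoxia were under an unadjusted p of 0.05. Their medians were -0.18 and -0.16. Their summed level was 7746 to 17089.6 CPM in hypoxia KO and 12328 to 15722 in normoxia KO. In the flox libraries high in the factors it was 32005 CPM (hypoxia flox 2) and 33049 CPM (normoxia flox 1). The other flox libraries had 6991 to 9341 CPM in hypoxia and 7959 to 9234 in normoxia. In the KO libraries the sum did not share this step: the lowest hypoxia KO sum was that of KO 4, a library high in the factors. Single genes differed. Hspa1b and Hspa1a, with the highest group means, had r of 0.264 and 0.381 with the mean deviation of the members over 18 libraries. Of the 10 genes, 4 were above 0.9, with Dnajb1 highest at 0.991. These genes are named after their values were seen.

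Among 23 tested candidate targets of AP-1 and EGR factors, 11 rose and 0 fell in hypoxia KO, and 6 rose and 1 fell in normoxia KO. Over all genes, 11.4% rose in hypoxia KO and 9.54% in normoxia KO. The medians were 1.2 and 0.8. The list was chosen with earlier results of these data known, and whether the factors act on these genes was not tested. In hypoxia the smallest adjusted p-values were those of Mmp14, a membrane matrix metalloprotease (1.94 ± 0.2, 8.8e-06), the cytokine Il11 (2.48 ± 0.44, 0.000959), the hyaluronan receptor Cd44 (3.04 ± 0.61, 0.00223) and Tgfb1 (0.5 ± 0.1, 0.00299). In normoxia they were those of Mmp14 (1.56 ± 0.2, 4.19e-05), Tgfb1 (0.66 ± 0.1, 0.000337), the protease inhibitor Timp1 (1.22 ± 0.34, 0.0199) and Il11 (1.58 ± 0.47, 0.0301). Pdgfb fell in normoxia by 0.41 (SE 0.13, adjusted p = 0.0378) and is named after its value was seen. Over 18 libraries, r with the mean deviation of the 10 members ran from -0.503 to 0.987 in the 23 targets. The median r was 0.636, and 5 targets were above 0.9. Of the targets named, Il11 had 0.679, Cd44 0.626, Tgfb1 0.11, Timp1 0.0758, Mmp14 -0.214 and Pdgfb -0.296. These r values are given without p.

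Unlike the factors, Mmp14 separated KO from flox at both oxygen levels. It was at 20.8 to 33.6 CPM in hypoxia KO and 4.75 to 8.16 in hypoxia flox. In normoxia it was at 23.6 to 37.7 CPM in KO and 8.25 to 13 in flox. Of all genes, 22.3% in hypoxia and 14.7% in normoxia had no overlap between KO and flox. Il11 was near the limit of detection, at 2.13 ± 1 CPM in hypoxia KO (SD, n = 5), 0.372 ± 0.206 in hypoxia flox (n = 4), 1.08 ± 0.326 in normoxia KO (n = 5) and 0.362 ± 0.196 in normoxia flox (n = 4). None of the 6 lists had a gene past the threshold in an oxygen comparison or in the interaction by edgeR. Under an unadjusted p of 0.05 the candidate targets had 8 genes within KO, 7 within flox and 2 in the interaction, and each other list had 0 or 1. DESeq2 called 1 target lower within KO, and 1 higher and 2 lower within flox.

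Summed markers of some other cells also differed between KO and flox, while those of neurons and fibroblasts overlapped in both oxygen conditions. Hypoxia KO 1 and normoxia KO 4 and 6, low in the factors, had the lowest pericyte, lymphocyte and oligodendrocyte sums of their groups. The summed level of 6 pericyte markers was 1139 to 2009 CPM in hypoxia KO and 172 to 925 in hypoxia flox, and 669.5 to 1259 in normoxia KO and 324 to 1135 in normoxia flox. Smooth muscle markers (5 genes) summed to 92.7 to 201 CPM in hypoxia KO, 234 to 469 in hypoxia flox, 102 to 129 in normoxia KO and 379.6 to 723 in normoxia flox. The 7 T and B lymphocyte markers summed to 6.4 to 19.7 CPM in hypoxia KO, 2.05 to 7.62 in hypoxia flox, 5.51 to 14.8 in normoxia KO and 1.52 to 4.96 in normoxia flox. Neutrophil markers (5 genes) summed to 88.9 CPM in hypoxia KO 4 alone. The sums were 0.592, 3.82, 3.69 and 3.52 CPM in hypoxia KO 1, 2, 3 and 5, and 0.251 to 1.14 CPM in hypoxia flox. Of the 5 genes, 3 were at 0 in some hypoxia KO library and 2 in some hypoxia flox library. In normoxia the sums overlapped, at 0.549 to 2.29 CPM in KO and 0.477 to 1.08 in flox. Oligodendrocyte sums (6 genes) overlapped, at 683 to 4529 CPM in hypoxia KO and 655 to 2369 in hypoxia flox. In normoxia they were 623 to 4915 CPM in KO and 889 to 5076 in flox. Astrocyte sums (7 genes) were 92.6 to 148 CPM in hypoxia KO and 169 to 246 in hypoxia flox. Those of microglia and macrophages (8 genes) were 32.5 to 68.1 and 20.3 to 22.1 CPM, and both overlapped in normoxia. The part of these cells in the values of the factors and of the candidate targets was not tested.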

How the data were processed

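The deposited counts are whole-number read counts per Ensembl gene, and the deposited RPKM are reads scaled by gene length and library total. Per the submitters' processing notes, HISAT2, edgeR and GRCm39 were used; versions, counting and strand settings are not given in the sources used here, so antisense overlaps are uncertain. Symbols came from the supplied tables (91.3% of genes; those without held 0.723% of counts). The members and lists were chosen with earlier results of these data known. In edgeR 4.0.16 (R 4.3.3), filterByExpr kept 17531 genes, TMM scaled them, and 1 quasi-likelihood model of 4 groups held all 18 libraries, with Benjamini-Hochberg adjustment over all genes, threshold 0.05. Log2 CPM used a prior count of 2. Named were all members, Egr4, Fosl1, Nab2 and Klf4, up to 4 passing genes per list and comparison with the smallest adjusted p, and the 6 genes most like the members.

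Replicate numbers come from the labels, which do not say whether equal numbers belong together. Across genes, deviations of same-numbered libraries correlated at 0.579, 0.294 and 0.847 in normoxia KO and flox (numbers 1, 2 and 4), so the rule of r above 0.1 in every pair treats these as pairs. The libraries of number 4 both carried neuronal transcripts. The rule was not met in hypoxia (0.158, 0.0403, -0.183 and -0.339), between KO groups (-0.491 to 0.402) or between flox groups (-0.525 to -0.217). Alternatives were RLE scaling, no or a stricter filter (1 CPM in 4 libraries), DESeq2 1.42.0, limma-trend 3.58.1 on log2(RPKM + 0.1), the legacy fit, the compared groups alone, a replicate block, a sex covariate and leaving out libraries. Chosen after the data were seen were the relation with Fos over flox libraries alone, the immediate early covariate (with all libraries, and again leaving out both that carried neuronal transcripts) and a fit that dropped any library holding Xist together with Ddx3y.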

Additional observations from a re-analysis of the deposited data

Results flagged for a closer look

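Hypoxia KO 1 stood apart on the low side for 8 of the 10 members, by the gap to its nearest library divided by the group's range (Dixon's 95% limits). No other library was flagged in the 40 sets of a member and a group. Chance flags about 1 in 20 such sets, and the 8 are not independent, since the members vary together. The ratio cannot flag libraries that are low together, as normoxia KO 4 and 6 were. Their Fos levels were 9.16 and 9.57 log2 CPM, against 12.41 to 12.49 in normoxia KO 1, 2 and 5. In log2 CPM, hypoxia KO 1 had 8.89 for Fos, 7.97 for Fosb and 7.54 for Fosl2, where the nearest hypoxia KO library had 12.07, 12.35 and 9.52. Junb was at 7.9 and Jund at 6.26, against 11.04 and 8.12 in the nearest library. Atf3 was at 6.71 (nearest 10.7), Egr1 at 8.8 (nearest 11.68) and Egr3 at 4.25 (nearest 8.82). Without this library the members' median log2 fold change of hypoxia over normoxia in KO was 0.47, against 0.21 with it, and 0 members passed. Its mitochondrial share was 4.2%, against 1.99% to 2.26% in the other 4 libraries of the group.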

How the results depend on the processing

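All 107 planned fits called 0 of the 10 members. Of 1220 values of single members under the alternatives, planned and added, 1212 kept their side of the threshold, 7 newly passed and 1 reversed. With the immediate early covariate the members called were 2 in hypoxia KO over flox (Fos and Atf3; also 2 without the neuron-marker libraries) and 1 in hypoxia over normoxia flox (Fos; 2 without those libraries, Fos and Fosb). In hypoxia over normoxia KO, 1 member passed only without them, Fos at -0.31 (adjusted p = 0.0425); it was -0.32 (adjusted p = 0.0566) with the covariate and all libraries, -0.18 (adjusted p = 0.984) without those libraries and without the covariate, and 0.08 with neither change.

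Counts over all genes moved more. A replicate block called 1791 genes over all libraries and 701 over the same-number pairs in KO over flox in normoxia, against 2905 without it. In hypoxia over normoxia KO the block gave 43 and 0, against 260; in flox the pairs gave 0, against 492; in the interaction the block gave 3, against 77. No member was called under any block. The block over same-number pairs moved the members' median log2 fold change to 2.54 in hypoxia KO over flox, against 1.33, with all 10 under an unadjusted p of 0.05 and a lowest adjusted p of 0.0563. It gave -0.16 against 0.21 within KO, with 8 signs changed, and 0.79 against -0.33 within flox, with 10 signs changed. The rule for treating equal numbers as pairs was not met in these 3 comparisons. DESeq2 called 613 genes in KO and 808 in flox between oxygen levels, and 149 in the interaction; only the groups compared gave 107 in KO. The covariate gave 445 genes in KO and 817 in flox, and without the neuron-marker libraries 942 in KO, 1296 in flox, 152 in the interaction and 4812 for KO over flox in normoxia. Leaving out 1 library gave 53 to 523 genes in hypoxia over normoxia KO and 28 to 98 in the interaction. With limma-trend on RPKM the median of all genes was -0.14 in hypoxia KO over flox, against 0, and that of the members 1.72. The cause of these shifts was not tested. The libraries' spread, with standard errors of 0.54 to 1.7 for the members, limits what can be shown. The lowest count of a member in a library was 229, of Egr3, and the part of counting depth was not tested.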
